A study of Mus musculus with 2 samples.

Results

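Intermediate filaments and the nuclear lamins were examined in C2C12 cells, an immortalised mouse myoblast line, through 10 genes chosen by symbol: Des, Vim, Nes, Synm, Krt8, Krt18, Krt19, Lmna, Lmnb1 and the linker gene Plec. All 10 had a row among the 21829 gene symbols of the deposited values. The data are 2 libraries of polyadenylated RNA, 1 from WT cells and 1 from GNE KO cells, both from cultures kept in medium with 10% fetal bovine serum. According to the methods, the KO line was made by CRISPR–Cas9 editing of Gne exon 2 and grown from single-cell clones, so it stands for a clone and not for a pool of edited cells. With 1 library per line, no difference has a replicate check, and an effect of Gne and a difference between clones cannot be told apart. Each library gives 1 value per gene, taken as FPKM, a fragment count scaled to transcript length and sequencing depth, and the number of reads is unknown. Gne itself was at 6.67 FPKM in WT and 7.34 FPKM in KO, a level that does not check which library carries the edit, because the edit need not lower the RNA.

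Intermediate filaments are rope-like polymers of rod-shaped proteins that give a cell mechanical strength. Vimentin and desmin form filaments on their own, nestin and synemin join those filaments as larger partners, keratins pair 1 acidic with 1 basic chain, and lamins form the meshwork under the inner nuclear membrane. Skeletal muscle precursors hold vimentin, nestin and desmin together, desmin becomes the filament of the mature fibre, where it links Z-discs to each other and to the membrane, and plectin ties the filaments to those structures. Mutations of desmin, of plectin and of A-type lamins each cause muscle disease.

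Desmin was the gene of this group that separated the lines. Des, the muscle filament gene, was at 97.6 FPKM in WT and 3.84 FPKM in KO, which is 25.4-fold lower, whereas the 5 other genes whose mean reached 1 FPKM stayed within 2-fold. Vim, the most abundant of the group, was nearly level between the lines, the nestin gene Nes as well, and both lamin genes had higher values in KO. The epithelial keratins Krt8, Krt18 and Krt19 and the synemin gene Synm were below 1 FPKM in both libraries.

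Differences are given as log2((KO + 1)/(WT + 1)), called the log2 fold change here, and the added 1 shrinks the change of genes with low values. Of the 10 genes, 6 had a mean of at least 1 FPKM over both libraries and 4 did not. Of those 6, 1 was more than 2-fold lower in KO, Des, and 0 were more than 2-fold higher. Over all 10542 genes with such a mean, 3.43% were more than 2-fold lower, 2.84% more than 2-fold higher and 6.27% beyond 2-fold either way. The median log2 fold change of the 6 genes was -0.13, beside 0.0061 for all genes, whose middle 50% ran from -0.21 to 0.23.

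**Figure D1:**
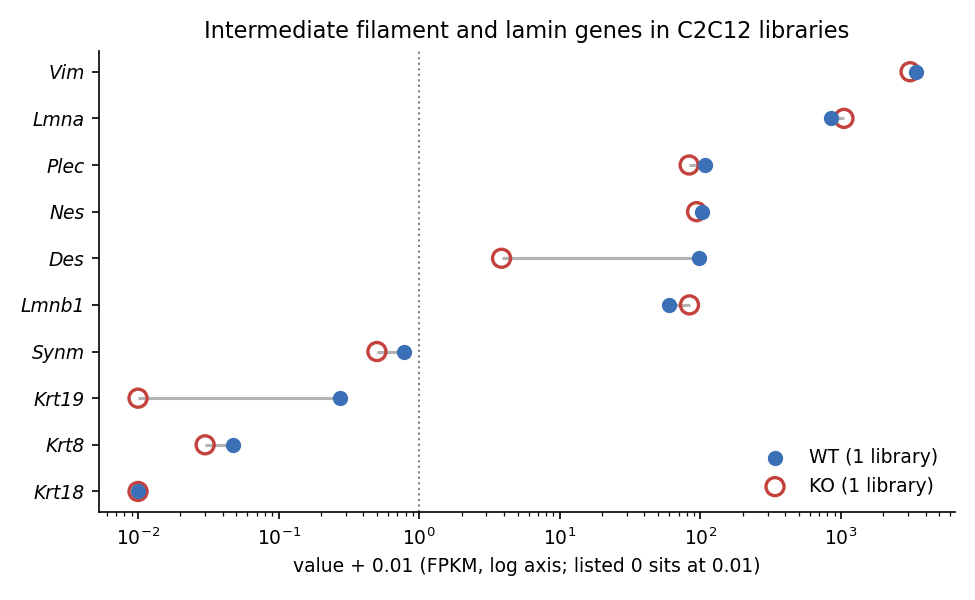
Value of each of the 10 genes in the WT library (filled blue) and the KO library (open red), as FPKM + 0.01 on a log axis, 1 library each and no error bars. The dotted line marks 1 FPKM. The circles of Des lie far apart at 97.6 and 3.84 FPKM, those of Vim, Lmna, Plec, Nes and Lmnb1 lie close together, and a listed 0 sits at the left edge.

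The gene order by level was led by the same pair in both libraries. Values per kilobase of transcript allow genes to be set beside each other within a library. In WT, Vim at 3406 FPKM was followed by Lmna at 853 FPKM, then by Plec, Nes and Des between 107 and 97.6 FPKM and by Lmnb1 at 60.1 FPKM. In KO, Vim at 3097 FPKM and Lmna at 1049 FPKM again came first, then Nes, Lmnb1 and Plec between 93.9 and 83.1 FPKM. Des came after these, in place 6 of the 10 instead of place 5. Whether neighbours in this order, such as Plec, Nes and Des in WT, differ beyond the spread between cultures cannot be said from single libraries. Among all genes Vim ranked 10 by level in WT and 11 in KO, and Des ranked 902 in WT and 9039 in KO.

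The proximal promoters of Des and Vim are shown because both encode filament proteins of the same type and only the value of Des was far lower in KO. They come from RefSeq on GRCm38.p6 and run from 250 bases before the annotated start to 50 bases after it. Capitals mark E-boxes, the letters CANNTG, the core that MyoD and other basic helix-loop-helix factors bind. The pattern reads the same on both strands.

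Des promoter, chr1:75360042-75360341, plus strand: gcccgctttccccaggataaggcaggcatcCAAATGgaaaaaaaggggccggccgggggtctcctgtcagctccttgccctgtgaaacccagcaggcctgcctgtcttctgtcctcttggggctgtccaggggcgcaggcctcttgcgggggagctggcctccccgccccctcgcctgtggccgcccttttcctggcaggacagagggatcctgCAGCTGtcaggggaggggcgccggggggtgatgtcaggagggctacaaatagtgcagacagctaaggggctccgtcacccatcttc

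Vim promoter, chr2:13574061-13574360, plus strand: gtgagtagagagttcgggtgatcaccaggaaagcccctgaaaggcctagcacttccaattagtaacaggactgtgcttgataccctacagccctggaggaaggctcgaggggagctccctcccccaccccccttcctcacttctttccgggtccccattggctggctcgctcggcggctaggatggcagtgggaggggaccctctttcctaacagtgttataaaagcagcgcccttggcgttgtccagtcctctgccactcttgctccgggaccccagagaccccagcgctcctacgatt

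The Des window holds 2 such sites, CAAATG beginning 220 bases before the start and CAGCTG beginning 36 bases before it, and the Vim window holds 0. Of all 32851 promoters in the table, 72.3% hold CANNTG and 16.3% hold CAGCTG, which is itself 1 form of CANNTG. Entries of the 10 genes on chromosome 18, where Lmnb1 lies, were left out of the search, so its number of sites is not given. Promoter entries of 7 of the 10 genes were searched, and a link between site numbers and values was not tested. The Krt8 window, of a gene near 0 in both libraries, holds 3 sites, 1 of them CAGCTG. The windows of Synm and Krt18, also below 1 FPKM in both libraries, hold 1 site each. For genes this low no fall could be called. Of the searched genes past the filter, only Des has sites, since the windows of Vim, Nes and both Lmna starts hold 0. These are matches of letters, and no binding was measured.

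Des had the largest difference of the group by far. Its log2 fold change of -4.35 was the 7th lowest of 10542 genes. In bulk RNA, fewer cells that hold Des and less Des RNA per cell cannot be told apart. The gene lies on chromosome 1 of GRCm39, where GENCODE vM39 places it from 75320511 to 75345223 on the plus strand. The median log2 fold change over its 54 neighbours, the genes that passed the filter and lay at most 5 Mb away, was 0.030. Its nearest measured neighbours were both higher in KO. Dnpep, an aminopeptidase gene, went from 40.6 to 58.0 FPKM, and Speg, a kinase gene of striated muscle, went from 20.7 to 27.9 FPKM. Less the median of its neighbourhood, the log2 fold change of Des was -4.38.

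Few other genes of a like level had a difference of this size. Among 2723 genes whose mean lay within 2-fold of that of Des, 4 had an equal or lower log2 fold change. The nearest in pattern were Cd34, a surface sialomucin gene of progenitor cells, from 136 to 10.6 FPKM, and Igfbp5, an IGF-binding protein gene that muscle cells secrete, from 85.9 to 1.36 FPKM. This likeness rests on 2 libraries and on nothing else.

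**Figure D2:**
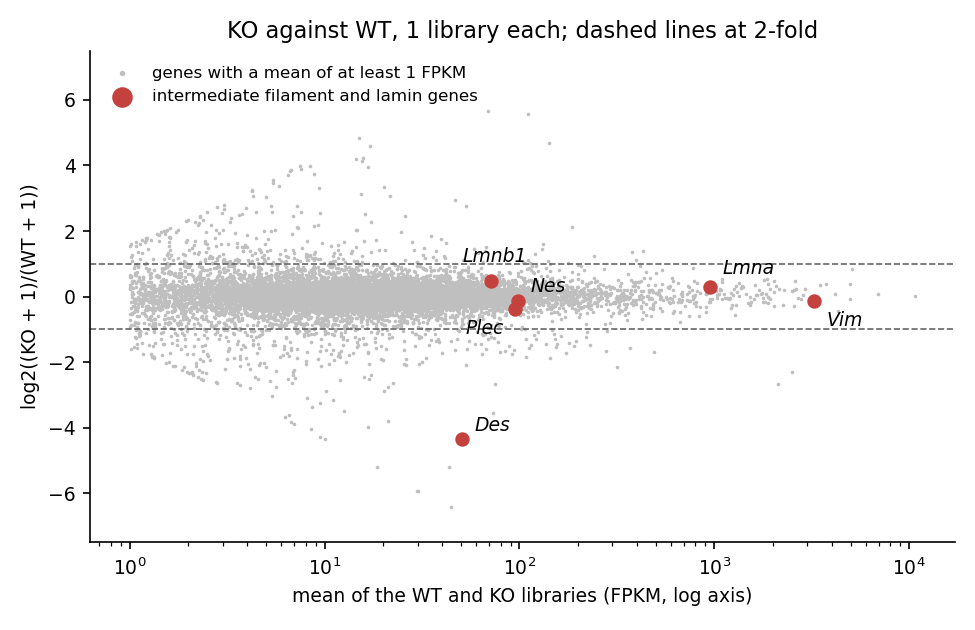
Log2 fold change of KO against WT over the mean of both libraries (FPKM, log axis) for genes whose mean reached 1 FPKM (grey) and for the 6 filament and lamin genes among them (red), 1 library per line. Des lies at -4.35, far under the dashed line of 2-fold, and the other 5 lie between both dashed lines.

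Vim and Nes, the other cytoplasmic filament genes of the group that passed the filter, were close to level. Vim, whose protein is the general mesenchymal filament, had 3406 FPKM in WT and 3097 FPKM in KO, 9.07% less, a log2 fold change of -0.14. Nes, whose protein adds long side arms to vimentin and desmin filaments in dividing precursors, had 102.6 FPKM in WT and 93.9 FPKM in KO, 8.55% less, a log2 fold change of -0.13. Both values lie inside the middle 50% of all genes. Synm, whose protein bridges desmin filaments to the dystrophin complex, had 0.769 FPKM in WT and 0.49 FPKM in KO and did not pass the filter.

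Ratios within a library, which no scaling between libraries can change, set Des apart from its partners. The ratio of Vim to Des was 34.9 in WT and 806 in KO. The ratio of Vim to Nes was 33.2 in WT and 32.99 in KO, nearly equal. Of the summed values of Vim, Des, Nes and Synm, 3607 FPKM in WT and 3195 FPKM in KO, Des made up 2.71% in WT and 0.12% in KO. Vim made up 94.4% and 96.9% of the same sums, so the total followed Vim.

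The simple epithelial keratins were at or near 0. Krt8, the basic chain that pairs with Krt18 in simple epithelia, had 0.037 FPKM in WT and 0.02 FPKM in KO. Krt18, the acidic partner, was listed at 0 in both libraries. Krt19, an acidic keratin of ducts and other simple epithelia, had 0.264 FPKM in WT and was listed at 0 in KO. No ratio of Krt8 to Krt18 could be formed, and no fold is given for values this low. Krt8 and Krt18 lie 23698 bases apart on chromosome 15 and point away from each other. Markers of simple epithelium gave the same picture, with 0 of 10 past the filter, a summed value of 0.084 FPKM in WT and 0.009 FPKM in KO, and Epcam, the epithelial adhesion gene, listed at 0 in both.

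Lmna and Lmnb1, the lamin genes of the group, had higher values in KO, by less than 2-fold. Lmna, which encodes lamins A and C by splicing that gene values cannot separate, had 853 FPKM in WT and 1049 FPKM in KO, 23.0% more, a log2 fold change of 0.30. Lmnb1, which encodes a B-type lamin held at the membrane by its farnesyl tail, had 60.1 FPKM in WT and 83.6 FPKM in KO, 39.0% more, a log2 fold change of 0.47. Of all genes 80.0% had a lower log2 fold change than Lmna and 88.8% a lower one than Lmnb1. The third lamin gene, Lmnb2, went the other way, with 35.05 FPKM in WT, 25.5 FPKM in KO and a log2 fold change of -0.44, while the genes around it on chromosome 10 had a median of 0.39. The ratio of Lmna to Lmnb1 was 14.2 in WT and 12.5 in KO. Lmna made up 89.96% of the 3 lamin genes in WT and 90.6% in KO, so the mix of A-type and B-type message was nearly the same.

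Lmna and Nes are close in the genome and differed in direction. Both lie on chromosome 3 with 499696 bases between them, Nes from 87878385 to 87887758 on the plus strand and Lmna from 88387454 to 88417299 on the minus strand. Their neighbourhoods had medians of 0.053 and 0.040, while Nes was at -0.13 and Lmna at 0.30. For Lmnb1, on chromosome 18, the 30 neighbouring genes had a median of 0.051. The log2 fold changes of both lamin genes thus exceeded the medians of the genes around them. Single neighbours were less uniform. Next to Lmna, Slc25a44 was higher still at 0.64 and Mex3a was at -0.080. Next to Lmnb1, C330018D20Rik was at 0.36 and Phax at -0.060.

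Plec, the plakin gene whose protein crosslinks filaments to Z-discs, hemidesmosomes and the nuclear envelope, had 107 FPKM in WT and 83.1 FPKM in KO, 22.5% less. Its log2 fold change of -0.36 was close to the median of its surroundings. Plec lies on chromosome 15 from 76055174 to 76116774 on the minus strand, and the 122 neighbouring genes had a median of -0.39. The nearest measured gene on each side went opposite ways, Nrbp2 from 6.27 to 1.06 FPKM and Parp10 from 3.76 to 6.22 FPKM. On that chromosome from 55 Mb onward, a start set after values were seen, 286 of 335 genes had a lower value in KO. Their median log2 fold change was -0.36, beside 0.0061 for all genes. Less the median of its neighbours, Plec was at 0.029, so its direction was not kept. Krt8 and Krt18 lie in the same stretch, and their values near 0 give no measure of it.

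**Figure D3:**
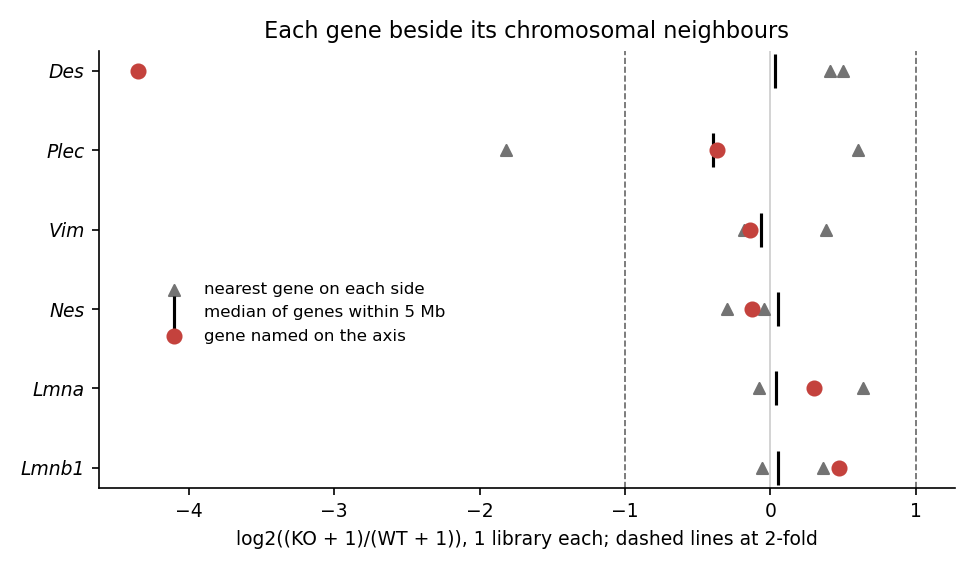
Log2 fold change of the 6 filament and lamin genes past the filter (red circles), the median of genes within 5 Mb on either side (black bars) and the nearest measured gene on each side (grey triangles), 1 library per line. Des at -4.35 lies far from its neighbourhood at 0.030, and Plec at -0.36 lies on its neighbourhood at -0.39.

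The rest of the filament family was small in these cells. Of 61 further family genes, 6 passed the filter and 36 were listed at 0 in both libraries. Among the 6, 2 were more than 2-fold lower in KO, beside 3.43% of all genes. More than 2-fold higher were 0, beside 2.84% of all genes, and the median was -0.37. The most abundant was Lmnb2. Krt14, the acidic keratin of basal epidermis, had 18.8 FPKM in WT and 6.20 FPKM in KO, a log2 fold change of -1.46. Krt80, a basic keratin, had 10.3 FPKM in WT and 4.44 FPKM in KO, a log2 fold change of -1.05, on chromosome 15 in a neighbourhood with a median of -0.40. Krt13 was at 2.23 and 2.94 FPKM. Krt5, the usual partner of Krt14 and named after its value was seen, was at 0.017 FPKM in WT and listed at 0 in KO. All 53 keratin genes together summed to 33.9 FPKM in WT and 14.3 FPKM in KO.

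Genes that anchor filaments at junctions included lower values beside level ones. Of 14 plakin and desmosome genes, 6 passed the filter, 2 were more than 2-fold lower and 0 more than 2-fold higher, and the median was -0.18. Over all genes 3.43% were more than 2-fold lower and 2.84% more than 2-fold higher. Jup, which encodes plakoglobin, a linker of desmosomes and adherens junctions, had 20.7 FPKM in WT and 1.43 FPKM in KO, a log2 fold change of -3.16. Pkp1, a desmosomal plakophilin gene, had 9.96 FPKM in WT and 1.29 FPKM in KO, a log2 fold change of -2.26. The plakin genes related to Plec did not follow them. Macf1, a giant crosslinker of actin and microtubules, was at 59.6 and 49.3 FPKM, Dst, its paralog, at 24.4 and 30.1 FPKM, and Pkp4, a plakophilin-related gene, at 13.6 and 14.4 FPKM. Desmoplakin, the plakin that ties filaments to desmosomes, was nearly silent, with Dsp listed at 0 in WT and at 0.003 FPKM in KO. Dsp is named after its value was seen.

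The partners of the lamins at the nuclear envelope are described by counts, of which a list this short says little, since 6.27% of all genes were beyond 2-fold either way. All 16 passed the filter, 0 were beyond 2-fold in either direction on the log2(value + 1) scale, 7 had higher and 9 lower values in KO, and the median was -0.12. Syne1, a nesprin gene that links the nucleus to the cytoskeleton, had the highest log2 fold change, 0.87, with 1.63 FPKM in WT and 3.81 FPKM in KO, and was beyond 2-fold with a pseudocount of 0.1. Tmpo, whose products bind lamins and chromatin, had 153 FPKM in WT and 217 FPKM in KO, a log2 fold change of 0.50 in a chromosome 10 neighbourhood with a median of 0.38. At the other end were Sun2, whose protein holds nesprins at the inner membrane, at -0.44, and Cbx5, a heterochromatin protein gene, at -0.42. Both Sun2, at 67.6 and 49.7 FPKM, and Cbx5, at 81.3 and 60.5 FPKM, lie on distal chromosome 15. Banf1, the chromatin-bridging factor gene and the most abundant of them, was at 275 and 223 FPKM.

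The list drawn up for lamin processing has 7 genes, too few for a count beyond 2-fold to stand out from the 6.27% of all genes. Not all of its genes encode processing enzymes, and the lowest log2 fold change was that of Ankle1, a nuclease gene. All 7 passed the filter and 0 were beyond 2-fold, with log2 fold changes from -0.33 to 0.30 and a median of 0.054. Zmpste24, the protease that matures prelamin A, was at 44.1 FPKM in WT and 46.9 FPKM in KO. Icmt, which methylates the farnesylated end, was at 18.4 and 22.8 FPKM, and Fntb, a farnesyltransferase subunit gene, at 11.4 and 12.9 FPKM. Rce1, the CAAX protease gene, was at 44.9 and 36.8 FPKM, and Ankle1, a LEM-domain nuclease gene, at 6.39 and 4.90 FPKM.

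In the list drawn up for partners of desmin, most genes that passed the filter did not share the difference of Des. The list has 15 genes, not all of which encode Z-disc proteins or chaperones. Of these 15, 10 passed the filter, and 5 were below it, where no fall could be called. Among the 10, 1 was more than 2-fold lower, 0 were more than 2-fold higher, and the median was 0.40. A count from so short a list says little beside the 3.43% of all genes that were more than 2-fold lower. Hspb1, the small heat shock protein gene, was that 1, at 128 FPKM in WT and 39.9 FPKM in KO, a log2 fold change of -1.66. Cryab, the chaperone of desmin whose mutation causes a related myopathy, had 178 FPKM in WT and 243 FPKM in KO, a log2 fold change of 0.45. Ldb3, a Z-disc gene, was at 3.27 and 5.92 FPKM, Dag1, the dystroglycan gene, at 46.4 and 64.9 FPKM, and Dnajb6, a co-chaperone gene, at 82.9 and 66.8 FPKM. The sarcomere genes of the list were near 0 in both libraries, with Actn2 and Myot listed at 0, both named after their values were seen.

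Of 15 genes of enzymes that act on filament proteins, 14 passed the filter and 0 were beyond 2-fold on the log2(value + 1) scale, near the share of 6.27% of all genes, with a median of 0.10. Cdk1, the mitotic kinase that phosphorylates lamins and vimentin, had 152 FPKM in WT and 210 FPKM in KO, a log2 fold change of 0.47, below the median of 0.55 of its neighbours on chromosome 10. Trim32, a ubiquitin ligase gene of muscle whose targets include desmin, was at 14.3 and 21.0 FPKM, and Prkce, a protein kinase C gene, at 1.77 and 3.06 FPKM. The lowest were Trim54, a muscle ring finger gene, at 1.61 and 0.524 FPKM, which was beyond 2-fold with a pseudocount of 0.1, and Cdk5, a kinase of nestin, at 19.6 and 14.6 FPKM.

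**Figure D4:**
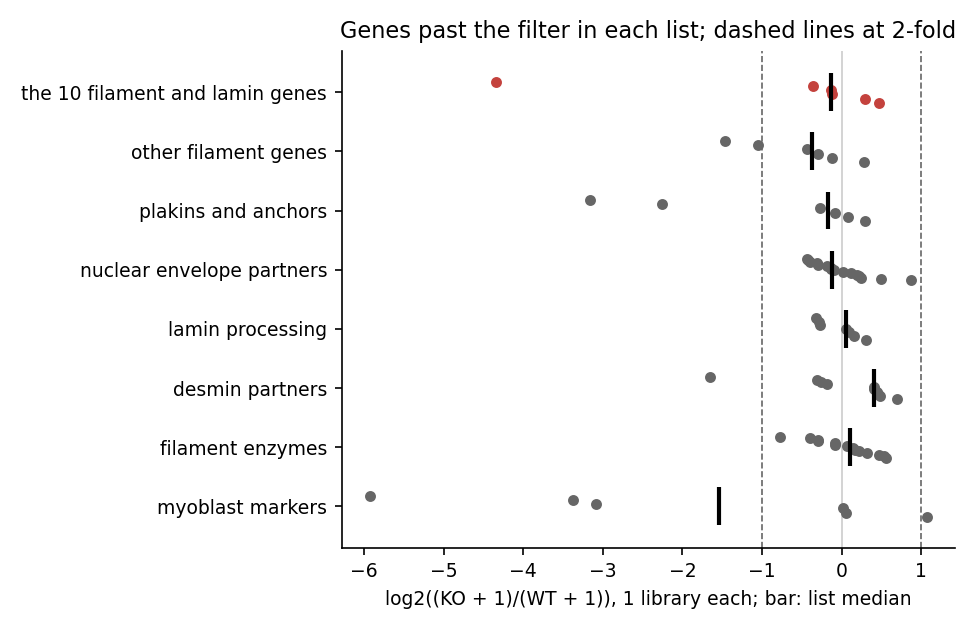
Log2 fold change of each gene that reached a mean of 1 FPKM in 8 gene lists, 1 point per gene and a black bar at the median of each list, 1 library per line. Des, Jup, Pkp1 and 3 myoblast markers lie far to the left of the left dashed line of 2-fold.

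Markers of myoblasts other than Des moved with it in part. Of 10 such genes, 6 passed the filter, 3 were more than 2-fold lower and 1 more than 2-fold higher in KO. Over all genes these shares were 3.43% and 2.84%. The list summed to 162 FPKM in WT and 82.8 FPKM in KO. Myod1, the myogenic transcription factor gene, was at 59.97 FPKM in WT and listed at 0 in KO, and Cdh15, the gene of M-cadherin, was at 16.6 and 0.701 FPKM. The other lower gene, Chrna1, an acetylcholine receptor gene named after its value was seen, was at 15.3 and 0.917 FPKM. Myf5, the related factor gene and the 1 higher, was at 9.14 FPKM in WT and 20.3 FPKM in KO, a log2 fold change of 1.07 that was no longer beyond 2-fold with a pseudocount of 5 or less its neighbours' median of 0.35. By contrast, Megf10, a satellite cell receptor gene, and Tnnt2, a troponin gene, were at 33.5 and 25.4 FPKM in WT and 33.9 and 26.4 FPKM in KO. Mymk, Musk, Myog and Pax7 were below the filter and are named after their values were seen. Mymk was at 0.604 FPKM in WT and listed at 0 in KO, Musk at 1.23 and 0.555 FPKM and Myog at 0.068 and 0.027 FPKM. Pax7 was listed at 0 in both. The KO library therefore held some genes of this list and had little or none of others. The part of these genes in the difference of Des was not tested.

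Markers of other cell types that use these filaments were read beside the values. Smooth muscle cells also hold desmin and vimentin. Of 4 smooth muscle genes that passed the filter, 3 had KO values beyond 2-fold above WT, beside 2.84% of all genes. The 6 genes of that list summed to 281 FPKM in WT and 683 FPKM in KO, led by Acta2 at 213 and 544 FPKM and Tagln at 20.3 and 54.5 FPKM. Actg2, named after its value was seen, was the other of these 3, at 24.1 and 58.1 FPKM. The defining gene of the type, Myh11, was at 0.009 and 0.02 FPKM. Fibroblasts hold vimentin without desmin, and the fibroblast list summed to 219 FPKM in WT and 434 FPKM in KO. Of its 3 genes past the filter, 1 was more than 2-fold higher, beside 2.84% of all genes. That gene was Col1a1, at 9.66 and 273 FPKM, from which the higher KO sum mainly came. Ly6a was at 198 and 146 FPKM and Pdgfra at 10.8 and 12.3 FPKM. Thy1 and Lum, named after their values were seen, were listed at 0 in both libraries. Dcn, Dpt and Pi16 were below the filter and were also named after their values were seen. Dcn was at 0.272 FPKM in WT and 1.68 FPKM in KO, Dpt at 0.041 and 0.493 FPKM and Pi16 at 0.068 and 0.085 FPKM. Neural markers, looked at because Nes and Vim also mark neural precursors, summed to 22.5 FPKM in WT and 1.35 FPKM in KO. They consisted mostly of Tubb3, at 17.99 and 0.997 FPKM, and Map2, at 4.25 FPKM in WT and listed at 0 in KO, and their defining gene Sox2 was listed at 0 in both. Mesothelial markers, looked at for the keratins, amounted almost wholly to Msln, at 43.8 and 14.8 FPKM. Endothelial genes summed to 0.01 and 0.028 FPKM and macrophage genes to 3.10 and 1.58 FPKM, mostly from Cd68 at 2.85 and 1.06 FPKM. The part of these cell types in the filament values was not tested.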

How the data were processed

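Messenger RNA of 1 WT and 1 GNE KO C2C12 culture was sequenced. According to the submitters' processing notes, Trim Galore 0.6.6, STAR 2.7.9a and RSEM 1.3.3 were used with the builds GRCm38 and GRCh38, whereas the methods name GRCm39. The kit and read length also differ between the methods and the labels. The deposited files hold a single value for each gene symbol, taken as FPKM from its range and from sums of 568543 and 574253. The methods name expected read counts and TPM as what RSEM gave, and do not name FPKM. A TPM table without some genes cannot be told apart from an FPKM table here. No authors' comparison columns were present.

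The 21853 rows held 24 repeats of a symbol, of which the one with the larger mean stayed. Log2 fold changes used a pseudocount of 1, and a gene passed the filter when its mean reached 1 FPKM. A call means beyond 2-fold. With 1 library per line no test was run. The 10 genes, the 14 further lists and all settings were chosen with earlier results of these data known. Named were the 10 genes, from each list the 2 highest, the 2 lowest and the most abundant past the filter, Gne, and for each of the 10 beyond 2-fold the 2 genes with the nearest log2 fold change within 2-fold of its mean. GENCODE vM39 on GRCm39 gave the positions of 10171 of the 10542 genes, and neighbours lay within 5 Mb on either side. The stretch of chromosome 15 was set after values were seen. Alternatives changed the scaling, the pseudocount, the filter and the handling of repeats, or removed neighbour medians and lowess trends on GC content and transcript length. The scripts were tested on simulated data. Python 3.11.15, numpy 2.4.6, pandas 2.3.3, statsmodels 0.14.6 and matplotlib 3.10.9 were used.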

Additional observations from a re-analysis of the deposited data

How the results depend on the processing

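No paired analysis was possible because each line has 1 library, which also left no replicate to leave out. Read numbers are unknown, so values near 0 have no stated precision. Counts were held to have moved when they differed by over 1.5 times, and single genes when they differed by over 0.44, the width of the middle 50% of log2 fold changes. The log2 fold change of Des ran from -4.63 to -3.54 over 7 alternatives, and -3.54, with a pseudocount of 5, was the 1 value that moved among the 8 genes above 0 in both libraries. Krt18 and Krt19, listed at 0 in at least 1, were given no fold under any setting. Plec was 0.029 after subtraction of its neighbours' median and negative otherwise. Scaling by the median of ratios, or each library to a sum of 1000000, kept the direction of each of the 6 genes past the filter.

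With a pseudocount of 5, lower genes were 1 of the other filament genes and 1 of the neural genes, against 2 each, and higher myoblast markers 0 against 1. With a pseudocount of 0.1, higher nuclear envelope genes became 1, lower filament enzymes 1 and lower macrophage genes 1, from 0 each. After subtraction of neighbours, lower other filament genes were 1 and higher myoblast markers 0. Without distal chromosome 15, added with the data in view, lower other filament genes were 1. With each library scaled to a sum of 1000000, which raises all values against the pseudocount and the filter, higher fibroblast genes were 2 and lower macrophage genes 1, and without a filter higher fibroblast genes were 2, since more genes then entered. With a mean of at least 5, lower neural genes were 1, with fewer genes tested. Over all genes there were 299 higher and 362 lower. Pseudocount 5 left 102 higher and 176 lower, and a filter at 5 FPKM left 145 higher and 221 lower.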

Other observations

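The type I keratin genes sit side by side on chromosome 11, and the values along that stretch were uneven, a pattern picked after the values were seen. Krt14 was at 18.8 FPKM in WT and 6.20 FPKM in KO, and Krt16, an acidic keratin of stressed epidermis, was at 0.843 FPKM in WT and listed at 0 in KO, as Krt19 was from 0.264 FPKM. Krt9 and Krt17, further acidic keratins, were at 0.158 and 0.05 FPKM in WT and likewise listed at 0 in KO. Jup, which lies a little further along, was at 20.7 and 1.43 FPKM. Other genes of the stretch were not lower to this extent. Krt13 was at 2.23 and 2.94 FPKM, Eif1, a translation start factor gene between Krt16 and Jup, at 398 and 445 FPKM, and Fkbp10, a collagen chaperone gene beyond Jup, at 119 and 119.7 FPKM. With 1 library per line, none of this has a replicate check.

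The neuronal filament genes were low in both libraries. Nefl, the light neurofilament chain and chosen after its value was seen, was at 0.01 FPKM in WT and 0.634 FPKM in KO, while Nefm, the medium chain, was at 0.119 and 0.05 FPKM and Prph, the peripherin gene of peripheral neurons, at 0.77 and 0.364 FPKM. None of these passed the filter of a mean of 1 FPKM.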
